A study of Mus musculus with 21 samples.

Results

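The 6 genes Trpm6, Trpm7, Cnnm4, Cnnm2, Slc41a1 and Magt1 encode channels and transporters linked to magnesium, and all 6 symbols were found among the 21441 genes of each expression table. They were chosen by symbol, for what their proteins are known to do, and not by their values. Intestinal RNA of mice was sequenced in 21 libraries from ileum and colon and deposited as FPKM (read fragments scaled to transcript length and to library size), in 6 tables that each hold 2 groups of 1 tissue. Treated mice carried a CDX2-VDR transgene: they lack their own vitamin D receptor (VDR) and make human VDR in the distal intestine, driven by the promoter of the intestinal gene CDX2. They were male, 9 weeks old, and received 3 injections of 1,25D3, the active hormone form of vitamin D, at 1 ng per g body weight, 48, 24 and 6 h before termination. Uninjected mice had the same transgene and no treatment, and were 9 to 10 weeks old. KO mice were Villin-CreERT2 VDR f/f, in which a Cre recombinase under the promoter of the epithelial gene Villin can remove a floxed Vdr once tamoxifen is given, a step the labels do not describe. They had no treatment, were male and were 9 to 11 weeks old. All animals were on the C57BL6J background. The colon gave 3 treated, 4 uninjected and 4 KO libraries, and the ileum gave 3 treated, 3 uninjected and 4 KO libraries.

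Magnesium is taken up from the gut by a passive route between cells along the small intestine and by a regulated route through cells that is best known from the colon and caecum. In the regulated route, magnesium enters from the lumen through TRPM6 and TRPM7, channels fused to a kinase domain, and leaves across the basolateral membrane, where CNNM4 is thought to exchange it for sodium. CNNM2 is a related membrane protein best known from the distal convoluted tubule of the kidney. SLC41A1 is a sodium-dependent magnesium carrier, and MAGT1 is a subunit of an oligosaccharyltransferase complex that has also been described as a magnesium transporter. The hormone 1,25D3 acts through VDR, which binds DNA as a pair with the retinoid X receptor and switches on genes of calcium transport. The comparisons below ask whether transcripts of the magnesium genes differed with transgenic VDR, with the hormone, and between ileum and colon.

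The labelled tissue is intestinal epithelium, and Epcam stood between 653 and 1926 FPKM in every library, but the smooth muscle gene Acta2 was also present, at 126 to 487 FPKM in the ileum and 95.9 to 1011 FPKM in the colon. Depth, as whole reads recovered from the FPKM steps, was 15.8M to 50.2M reads per ileum library and 11.2M to 44.4M per colon library. Vdr was measured in every group, KO included: its row had 13.4 to 22.6 FPKM in treated ileum, 22.1 to 24.9 in uninjected ileum and 19.3 to 21.0 in KO ileum. Uninjected ileum thus lay above KO ileum without overlap. In the colon, where the ranges overlapped, it had 20.7 to 39.9 FPKM in treated, 12.7 to 34.0 in uninjected and 20.6 to 23.5 in KO libraries. That row covers the whole gene, so it does not check the deletion. Treated Vdr values come from another table than those of uninjected and KO libraries, scaled separately. Pancreatic acinar transcripts were high in 3 colon libraries, treated 4, uninjected 3 and KO 2, whose medians over 12 acinar markers were 920.5, 7193 and 2594 FPKM, against at most 40.4 FPKM in any other library. One uninjected colon library labelled female, number 3, had 12.1 FPKM of the Y-linked Ddx3y, against 0.0979 and 0.209 FPKM in the other two labelled female, of which number 1 also had little Xist (0.0889 FPKM, against 5.91 FPKM in number 2). In the ileum, Ddx3y was intermediate in uninjected 3 (2.32 FPKM) and in treated 1 (1.76 FPKM), a group labelled male, beside 8.98 to 15.1 FPKM in the other libraries except uninjected 1 (0.0347 FPKM). Of the uninjected samples, 2 of 3 ileum and 3 of 4 colon samples were labelled female, whereas all treated and KO samples were labelled male. Uninjected over KO therefore joins genotype with labelled sex and in part with age, and treated over KO joins genotype with hormone and in part with age. In 4 libraries, measured levels depended steeply on base composition: relative to the KO mean, log2 FPKM changed with a transcript's GC content by 1.24 per 10% GC in treated ileum 1 and also in uninjected ileum 3, by 0.939 in uninjected colon 1 and by 0.530 in uninjected colon 2. The other 17 libraries had GC slopes of -0.46 to 0.30.

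The transcripts of the 6 genes differ in base composition. The Trpm7 and Magt1 transcripts have 40.1% and 40.7% GC, and Trpm6 has 47.1%, below the median of 49.6% over all genes with a transcript in the annotation. Slc41a1 has 54.1%, Cnnm4 54.8% and Cnnm2 55.5%. The stretches printed here are 60 coding bases of the 2 transcripts poorest in GC and of the 2 richest, each chosen to have about the GC content of its transcript, 5′ to 3′ in the sense of the gene, with every G and C in capitals.
Trpm7, chr2:126684165-126684224 (minus strand, mm9): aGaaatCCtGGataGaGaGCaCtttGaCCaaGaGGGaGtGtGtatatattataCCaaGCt
Magt1, chrX:103192267-103192326 (minus strand, mm9): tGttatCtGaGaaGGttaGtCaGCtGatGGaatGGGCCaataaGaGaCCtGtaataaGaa
Cnnm4, chr1:36528921-36528980 (plus strand, mm9): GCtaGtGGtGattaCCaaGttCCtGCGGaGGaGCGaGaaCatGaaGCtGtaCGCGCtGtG
Cnnm2, chr19:46836710-46836769 (plus strand, mm9): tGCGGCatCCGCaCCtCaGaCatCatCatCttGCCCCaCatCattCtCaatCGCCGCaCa
The Trpm7 and Magt1 stretches hold 24 G or C of 60 bases each, and the Cnnm4 and Cnnm2 stretches hold 33 of 60 each. In the same build Trpm6 spans chr19:18824473-18967000 on the plus strand with 39 exons, Trpm7 spans chr2:126617301-126701966 on the minus strand with 39 exons, and Magt1 spans chrX:103163423-103207245 on the minus strand with 10 exons. Cnnm4 spans chr1:36528442-36565621 with 7 exons, Cnnm2 chr19:46836086-46953285 with 7 exons and Slc41a1 chr1:133724070-133745442 with 11 exons, all 3 on the plus strand.

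All 6 genes were expressed in both tissues, at single-library levels from 0.568 FPKM (Trpm6 in treated ileum 1) to 152 FPKM (Cnnm4 in uninjected colon 1), and FPKM values are per length, so genes can be set side by side. In the ileum, over 10 libraries, the median level was 50.6 FPKM for Cnnm4, 35.6 for Magt1, 8.17 for Trpm7, 4.20 for Trpm6, 3.10 for Slc41a1 and 1.36 for Cnnm2. In the colon, over 11 libraries, it was 90.0 FPKM for Cnnm4, 31.1 for Magt1, 14.3 for Trpm6, 9.32 for Trpm7, 4.59 for Slc41a1 and 1.86 for Cnnm2. The ranges of neighbours in that order overlapped, Cnnm4 and Magt1 in the ileum included (32.2 to 85.7 against 10.3 to 50.7 FPKM), except Cnnm4 over Magt1 in the colon (40.6 to 152 against 11.5 to 39.2 FPKM) and Slc41a1 over Cnnm2 in the colon (3.21 to 5.69 against 1.54 to 2.90 FPKM). The basolateral exchanger gene Cnnm4 was thus the most abundant by median in both tissues, at percentile 85.3 of the 11898 genes expressed in the ileum and percentile 91.3 of the 12512 expressed in the colon. Its relative Cnnm2 was the lowest, at percentile 6.75 in the ileum and 13.1 in the colon.

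The place of Trpm6 in the order differed between the tissues. Among KO libraries, none of which had a steep GC slope, Trpm6 stood at 4.42 to 6.19 FPKM in the ileum and at 9.16 to 15.0 FPKM in the colon, so the ranges did not overlap. The tables of the tissues were scaled separately, and no test was made of levels between them. Within a library, where scaling does not enter, the ratio of Trpm6 to Trpm7 had a median of 0.418 over ileum libraries (range 0.191 to 1.81) and of 1.30 over colon libraries (range 0.955 to 7.35). Its highest colon values, 7.35 and 6.73, were those of uninjected colon 1 and 2, and the next was 1.57. The ratio of Cnnm4 to Trpm6, the exit gene over the entry gene, was 5.52 to 121 in the ileum and 3.94 to 8.44 in the colon. Its highest ileum values, 121 and 101, were those of treated ileum 1 and uninjected ileum 3, and the next was 21.7. These are the libraries of steep GC slope, whose part in the ratios was not tested. Cnnm4 over Cnnm2 lay between 20.8 and 47.4 in the ileum and between 21.8 and 58.5 in the colon.

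**Figure D1:**
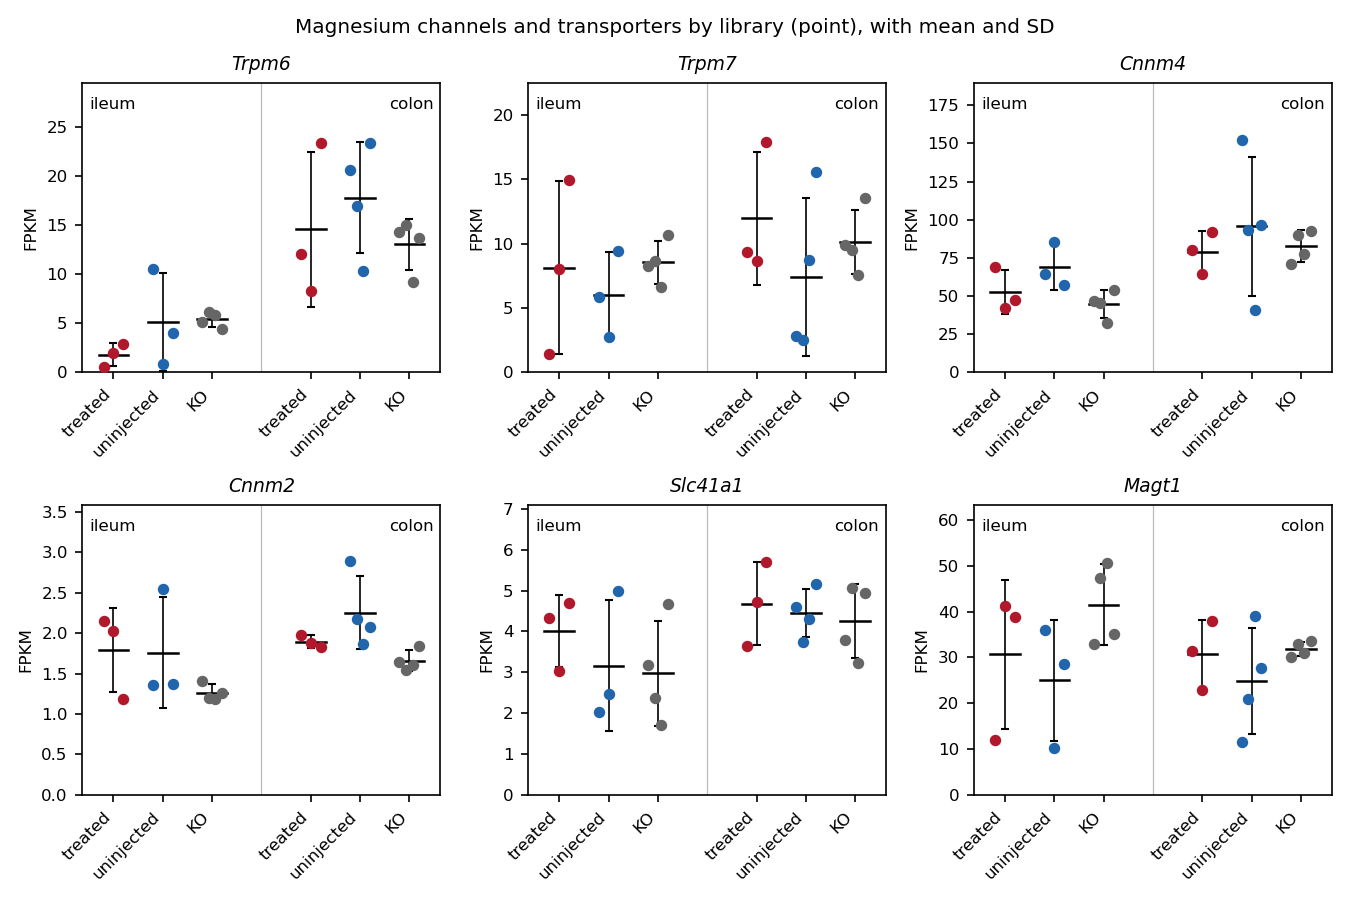
FPKM of each of the 6 genes (vertical axes, starting at 0) in every library (points), by group within ileum (left of the grey line) and colon (right), with the mean (bar) and SD (whiskers). Treated libraries are from the tables with KO and the other libraries from the tables of uninjected and KO mice; the 3 treated ileum points of Trpm6 (0.568 to 2.85 FPKM) lie below all 4 KO points, and the other panels show overlapping groups except uninjected over KO for Cnnm4 in the ileum and for Cnnm2 in the colon.

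No magnesium gene passed the test in any of the 6 comparisons within a tissue. The test was limma on log2(FPKM + 0.5) over all genes that averaged 1 FPKM or more in the table, two-sided, with Benjamini-Hochberg adjustment over all of them and a threshold of 0.05, and all 6 genes passed the filter in every table. In the ileum 0 of 6 passed for treated over KO, where 0.0835% of 11974 genes did, 0 of 6 for uninjected over KO, where 0.00846% of 11827 genes did, and 0 of 6 for treated over uninjected, where 0% of 11815 genes did and 97 had an unadjusted p under 0.05. In the colon the counts were 0 of 6 for treated over KO against 0.296% of 12505 genes, 0 of 6 for uninjected over KO against 0.0804% of 12437 genes, and 0 of 6 for treated over uninjected against 0% of 12567 genes, of which 143 had an unadjusted p under 0.05. Among the 36 tests of the 6 genes, 1 had an unadjusted p under 0.05 with limma, that of Trpm6 in treated over KO ileum. A share of 0 of 6 is what such small background shares would also give, so it does not set the magnesium genes apart. Because the labels name no animal, a p here reflects no more than the spread among the deposited samples, which may be technical.

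The same fits called some, not all, of 4 genes known to respond to vitamin D. In treated over KO colon, the calcium channel gene Trpv6 had a log2 difference of 8.36, S100g (the calcium-binding protein calbindin-D9k) of 7.84, Cyp24a1 (the hormone's catabolic enzyme) of 5.24 and the manganese transporter gene Slc30a10 of 2.86, with limma adjusted p between 3.01e-05 and 0.0201. In treated over KO ileum, S100g at 5.06 (adjusted p = 0.00206, limma) and Cyp24a1 at 4.41 (adjusted p = 0.0105) passed, whereas Slc30a10 at 0.88 (adjusted p = 0.939) did not and Trpv6 was below the filter. Uninjected over KO called Trpv6, S100g and Slc30a10 in the colon and neither of the 2 tested in the ileum, S100g and Slc30a10, where S100g had a log2 difference of 6.43 (limma adjusted p = 0.0577). In treated over uninjected, none of the 4 passed in either tissue, Cyp24a1 included, with log2 differences of 3.85 in the ileum (limma adjusted p = 0.471) and 4.54 in the colon (adjusted p = 0.171). The magnesium genes' log2 differences lay between -1.57 and 0.37 in treated over KO ileum and between -0.17 and 0.10 in treated over KO colon. In bulk RNA of this kind, fewer cells of a type and less RNA per cell cannot be told apart.

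Trpm6, the entry channel, gave the largest difference of the 6 genes. In the ileum, the treated libraries had 0.568, 1.94 and 2.85 FPKM of it, against 5.39, 6.44, 6.13 and 4.66 FPKM in the KO libraries of the same table. Every treated library was below every KO library. The mean was 1.79 ± 1.15 FPKM in treated ileum (SD, n = 3) and 5.65 ± 0.798 FPKM in KO ileum (SD, n = 4), a log2 difference of -1.57 (SE 0.386, 95% interval -2.44 to -0.70), with an unadjusted p of 0.00275 by limma. After adjustment over all 11974 genes it did not pass (limma adjusted p = 0.587), and its rank by p was 56. The exact permutation test of the means gave p = 0.0571, the smallest that 3 against 4 libraries can give, and 0.686 after adjustment over the 36 tests of the magnesium genes. Groups did not overlap for 5% of all genes tested in that table, so 1 non-overlapping gene of 6 has that background.

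The lowest treated value rested on 68 reads, and the other two treated ileum libraries had 227 and 464 Trpm6 reads, against 674 to 1529 reads in the KO ileum libraries. The difference stayed negative in all 16 alternatives, with log2 values of -1.97 to -1.10 and unadjusted limma p of 0.000515 to 0.00941, and failed the adjusted threshold in all of them (adjusted p 0.142 to 0.999). Alternatives that changed only the filter or the error model left the estimate as it was and could not turn its sign. The alternative without steep GC slopes repeats the one without treated ileum 1. Without treated ileum 1, the library with the steep GC slope, the log2 difference was -1.10 (limma adjusted p = 0.375). With the GC and length trends removed it was -1.48 (limma adjusted p = 0.194).

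Uninjected ileum did not share one level of Trpm6. Its 3 libraries had 10.5, 0.845 and 3.97 FPKM, against 5.17, 6.19, 5.83 and 4.42 FPKM in KO ileum, so the uninjected group held both the highest and the lowest of these libraries. The log2 difference was -0.53 (SE 0.591, limma adjusted p = 0.709), and without uninjected ileum 3, the library at 0.845 FPKM with the steep GC slope, it was 0.26. Against uninjected ileum, treated ileum had a log2 difference of -1.02 (95% interval -2.82 to 0.78, limma adjusted p = 1.00), with 0.520, 1.80 and 2.67 FPKM in treated libraries and 10.2, 0.817 and 3.89 FPKM in uninjected libraries. The sex of most uninjected samples and their lack of hormone cannot be told apart in this comparison.

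Cell type markers also varied across these libraries. The median over 6 ileal enterocyte markers (Fabp6, Slc10a2, Fabp2, Apoa4, Lct and Sis) was 1349, 588 and 359 FPKM in treated ileum 1, 2 and 4, 273, 1306 and 277 FPKM in uninjected ileum 1, 3 and 4, and 181 to 279 FPKM in KO ileum. The 4 libraries with the least Trpm6, the 3 treated ones and uninjected 3, had the 4 highest medians. Single markers did not move together. Fabp6 was at 3924, 6492 and 7939 FPKM in treated ileum 1, 2 and 4, against 14424 to 37441 FPKM in KO ileum. In treated ileum 1 and uninjected ileum 3, both of steep GC slope, Apoa4 was highest (2594 and 2564 FPKM). Slc10a2 (22.7 and 15.5 FPKM) and Sis (57.1 and 48.3 FPKM) were lowest there, whereas Sis was highest in treated ileum 2 and 4 (464 and 444 FPKM). The sum of the 6 markers did not follow their median. It was 10303 to 20164 FPKM in treated ileum, 21160 to 43605 FPKM in uninjected ileum and 17768 to 46035 FPKM in KO ileum. Treated ileum thus lay below uninjected ileum without overlap, whereas both overlapped KO ileum. None of the 6 markers was at 0 in any of these libraries. Goblet cell markers differed too: the median over 6 of them was 360, 554 and 535 FPKM in treated ileum 1, 2 and 4, 773, 343 and 466 FPKM in uninjected ileum 1, 3 and 4, and 652 to 750 FPKM in KO ileum, so treated and KO ileum did not overlap. None of these 6 was at 0, and their summed level was 6846 to 11460 FPKM in treated, 7297 to 23067 FPKM in uninjected and 8384 to 19859 FPKM in KO ileum. The part of either cell type in the Trpm6 difference was not tested.

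**Figure D2:**
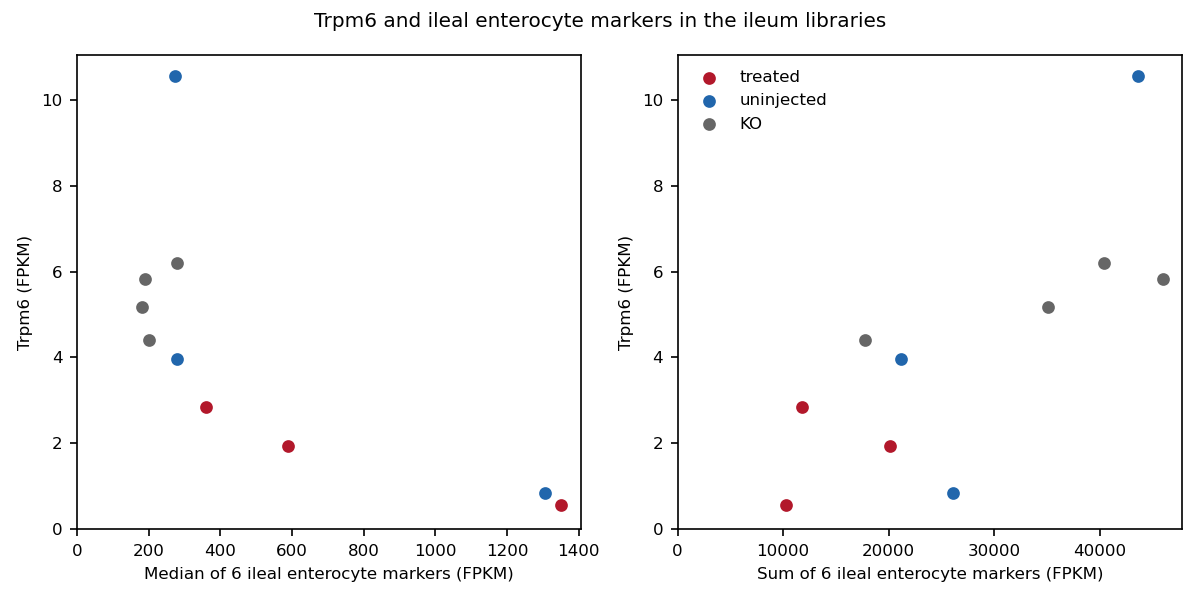
Trpm6 (vertical axes, FPKM) against the median (left) and the sum (right) of 6 ileal enterocyte markers (FPKM) in the 10 ileum libraries, coloured by group. The 3 treated ileum libraries and uninjected ileum 3 have the 4 highest medians (359 to 1349 FPKM) and the 4 lowest Trpm6 values (0.568 to 2.85 FPKM). Values come from both tables with KO, which were scaled separately.

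In the colon Trpm6 did not separate the groups. Treated colon had 12.0, 8.28 and 23.4 FPKM, against 15.2, 15.9, 9.82 and 14.5 FPKM in KO colon. The treated libraries lay on both sides of the KO range, and the log2 difference was -0.03 (95% interval -0.81 to 0.74, limma adjusted p = 0.984). Uninjected colon had 20.6, 17.0, 10.3 and 23.4 FPKM, against 14.3, 15.0, 9.16 and 13.6 FPKM in KO colon. Of those, 3 of 4 uninjected libraries were above every KO library, and the log2 difference was 0.40 (SE 0.282, 95% interval -0.23 to 1.03, limma adjusted p = 0.721). Set against uninjected colon, treated colon differed by -0.43 (95% interval -1.39 to 0.52, limma adjusted p = 1.00).

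The difference between the tissues was tested itself, with ileum and colon libraries taken as independent. The labels name no animal, so whether both tissues came from the same mice is not known. The SE and p below leave such pairing out. For treated over KO, the ileum difference of Trpm6 minus the colon difference was -1.53 on the log2 scale (SE 0.537, 95% interval -2.69 to -0.38), with an unadjusted limma p of 0.0128 and an adjusted p of 0.977, so it did not pass. It was -0.93 for uninjected over KO and -0.59 for treated over uninjected, and neither passed (limma adjusted p = 1.00 each). Over all 6 genes, 0 of 6 passed in each of these 3 tests, against backgrounds of 0.00803% of 12448 genes, 0.00809% of 12364 genes and 0% of 12437 genes, the last with 28 genes at an unadjusted p under 0.05.

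Promoters were searched for letters that VDR and its partner are known to bind. The search took direct repeats of the half-site AGGTCA or of its variant AGTTCA, or of the variants GGGTCA and also GGTTCA, each with a spacer of 3 bases, on both strands, in the 300 bases from 250 before to 50 after each gene's start in RefSeq (GRCm38.p6). None of the 6 magnesium promoters held the repeat, and neither did those of Trpv6, S100g and Slc30a10, while 13 of 32851 promoters (0.0396%) did. Cyp24a1 had no promoter in the set searched. A single half-site of these letters was in the promoters of Trpm6 and Magt1 and not in the other 4, whereas 43.7% of all promoters held at least 1. The promoter of Trpv6 held 2 half-sites, that of S100g 3 and that of Slc30a10 0. The Trpm6 promoter is shown because Trpm6 had the largest difference, with its half-site GGGTCA in capitals, at chr19:18749480-18749779 on the plus strand of GRCm38.p6.
Trpm6 promoter: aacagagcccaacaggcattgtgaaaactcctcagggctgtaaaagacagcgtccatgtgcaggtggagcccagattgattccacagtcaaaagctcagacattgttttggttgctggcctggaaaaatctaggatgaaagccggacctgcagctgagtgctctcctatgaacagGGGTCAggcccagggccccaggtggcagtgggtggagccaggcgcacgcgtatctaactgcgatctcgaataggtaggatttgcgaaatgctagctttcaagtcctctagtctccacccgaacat
A match or its absence describes these letters in this window and nothing of binding elsewhere in the gene.

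Trpm7, the companion channel that most cell types express, followed the libraries more than the groups. In the ileum it had 1.44, 8.07 and 14.9 FPKM in treated libraries, against 8.62, 9.01, 6.94 and 11.2 FPKM in KO libraries. The treated group held both the lowest and the highest value, and the log2 difference was -0.55 (95% interval -1.91 to 0.80, limma adjusted p = 0.939). Uninjected ileum had 5.83, 2.77 and 9.44 FPKM, against 8.28, 8.66, 6.60 and 10.7 FPKM in KO ileum (log2 difference -0.60, SE 0.375, limma adjusted p = 0.665). In the colon, treated libraries had 9.32, 8.66 and 18.0 FPKM, within and above the 10.5, 10.1, 8.08 and 14.4 FPKM of KO libraries (log2 difference 0.10, 95% interval -0.57 to 0.77, limma adjusted p = 0.951). Uninjected colon split into 2.80 and 2.52 FPKM in libraries 1 and 2 and 8.70 and 15.6 FPKM in libraries 3 and 4, against 9.92, 9.52, 7.54 and 13.6 FPKM in KO colon. The resulting log2 difference of -0.75 (SE 0.511, limma adjusted p = 0.721) became 0.22 without libraries 1 and 2.

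Magt1, the oligosaccharyltransferase subunit, had the same low libraries. Treated ileum had 11.9, 41.2 and 38.9 FPKM, against 34.3, 49.2, 53.3 and 37.0 FPKM in KO ileum. One treated library was far below the KO range and the other two lay within it, and the log2 difference was -0.66 (95% interval -1.63 to 0.31, limma adjusted p = 0.939). Uninjected ileum had 36.1, 10.3 and 28.6 FPKM, against 32.9, 47.3, 50.7 and 35.1 FPKM in KO ileum. Here the log2 difference was -0.87 (SE 0.420, 95% interval -1.82 to 0.07, limma adjusted p = 0.665), and it was -0.34 without uninjected ileum 3. Uninjected colon ran over 11.5, 20.8, 39.2 and 27.7 FPKM, whereas KO colon was tightly grouped at 30.1, 32.9, 31.1 and 33.5 FPKM (log2 difference -0.48, SE 0.329, limma adjusted p = 0.721). Treated colon had 31.5, 23.0 and 37.9 FPKM, against 31.9, 34.8, 33.3 and 35.7 FPKM in KO colon (log2 difference -0.17, limma adjusted p = 0.853).

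The libraries that were low for both genes were the 4 with a steep GC slope. Trpm7 stood at 1.44 to 2.80 FPKM in those 4, and every other library was at 5.83 FPKM or more in the tables with KO. Magt1 stood at 10.3 to 20.8 FPKM in the same 4 and at 23.0 FPKM or more in every other library. The GC-rich Cnnm2 went the other way, with 2.16 to 2.90 FPKM in those 4 libraries and at most 2.08 FPKM in all but them. Not every member followed its GC content: GC-rich Slc41a1 stood at 2.47 to 4.59 FPKM in the same 4 libraries, within its range over the rest, and Trpm6 was lowest in the 2 ileum libraries (0.568 and 0.845 FPKM) but not in the 2 colon ones (20.6 and 17.0 FPKM). The part of the GC slope in any difference between groups was not tested for a single gene, but values with the trend removed and without the 4 libraries are among the alternatives.

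**Figure D3:**
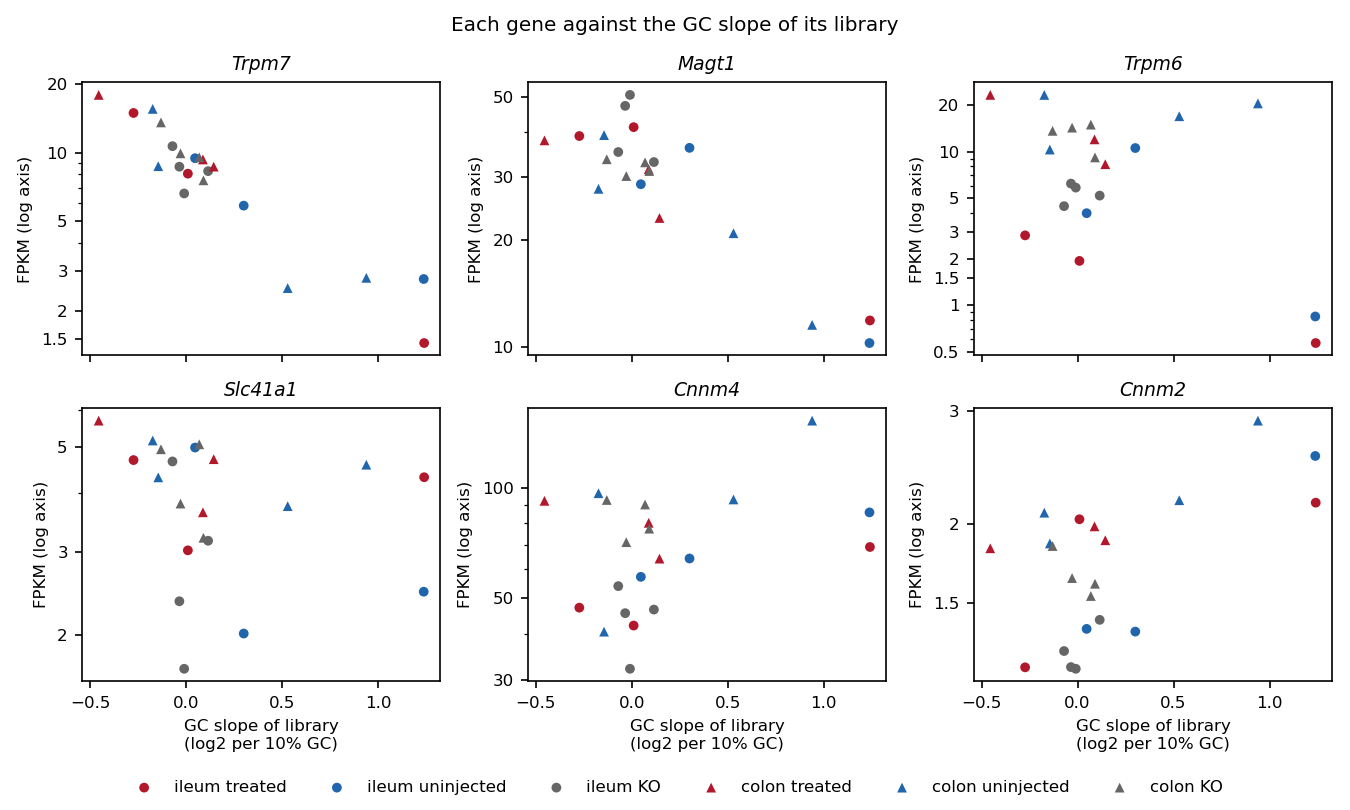
FPKM of each gene (vertical axes, log scale) against the GC slope of the library (horizontal axis, change in log2 FPKM per 10% of transcript GC relative to the KO mean), with circles for ileum, triangles for colon and colours for groups. The 4 libraries with slopes of 0.530 or more hold the lowest Trpm7 (1.44 to 2.80 FPKM) and Magt1 (10.3 to 20.8 FPKM) and the highest Cnnm2 (2.16 to 2.90 FPKM).

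Cnnm4, the basolateral exchanger, separated uninjected from KO ileum without passing the test. Uninjected ileum had 64.2, 85.7 and 57.2 FPKM, against 46.6, 45.6, 32.2 and 54.0 FPKM in KO ileum. Every uninjected library was above every KO library, as was the case in 1 direction or the other for 8.61% of the genes tested. The mean was 69.0 ± 14.8 FPKM in uninjected ileum (SD, n = 3) and 44.6 ± 9.09 FPKM in KO ileum (SD, n = 4), a log2 difference of 0.63 (SE 0.280, unadjusted p = 0.0512 and adjusted p = 0.665 by limma). The exact permutation test gave p = 0.0571, the smallest possible, and 0.686 after adjustment. Without uninjected ileum 3, whose GC slope was steep and whose Cnnm4 was the highest, the log2 difference was 0.46 (limma adjusted p = 0.999).

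Treated ileum did not stand apart for Cnnm4, at 69.0, 42.2 and 47.2 FPKM against 48.5, 47.4, 33.8 and 56.9 FPKM in KO ileum (log2 difference 0.17, 95% interval -0.46 to 0.80, limma adjusted p = 0.941). In the colon, treated libraries had 80.3, 64.1 and 92.1 FPKM, against 75.3, 95.4, 82.9 and 98.5 FPKM in KO libraries, and the groups overlapped. Uninjected colon had 152, 92.9, 40.6 and 96.6 FPKM, against 71.1, 90.0, 77.4 and 92.6 FPKM in KO colon. The highest and the lowest of these values were both uninjected, the lowest in library 3, which was richest in acinar transcripts. The log2 differences were -0.17 for treated over KO colon (95% interval -0.59 to 0.26) and 0.07 for uninjected over KO colon (95% interval -0.74 to 0.87), with limma adjusted p of 0.852 and 0.947.

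Cnnm2, the least abundant of the 6 genes, separated uninjected from KO colon. Its values were 2.90, 2.18, 1.86 and 2.08 FPKM in uninjected colon, against 1.64, 1.54, 1.61 and 1.84 FPKM in KO colon. Every uninjected library was above every KO library, although the nearest pair stood at 1.86 and 1.84 FPKM, and 2.71% of genes tested in that table had groups that did not overlap. The mean was 2.25 ± 0.449 FPKM in uninjected colon and 1.66 ± 0.131 FPKM in KO colon (SD, n = 4 each), a log2 difference of 0.34 (SE 0.225, limma adjusted p = 0.721). The exact permutation test gave p = 0.0286, the smallest that 4 against 4 libraries can give, and 0.686 after adjustment over the 36 tests. Without uninjected colon 1 and 2 the log2 difference was 0.19.

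The other Cnnm2 comparisons overlapped. Treated colon had 1.98, 1.88 and 1.83 FPKM, against 1.74, 1.63, 1.73 and 1.96 FPKM in KO colon (log2 difference 0.08, 95% interval -0.35 to 0.52, limma adjusted p = 0.937). Treated ileum had 2.16, 2.03 and 1.19 FPKM, against 1.47, 1.24, 1.25 and 1.33 FPKM in KO ileum, with 1 treated library below and 2 above the KO range. Uninjected ileum had 1.35, 2.55 and 1.37 FPKM, against 1.41, 1.19, 1.18 and 1.26 FPKM in KO ileum. These ileum differences were 0.31 for treated over KO and 0.32 for uninjected over KO on the log2 scale (limma adjusted p = 0.939 and 0.671). At 54 to 303 reads per colon library and 70 to 222 per ileum library, Cnnm2 was also the gene with the fewest reads by median.

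Slc41a1, the sodium-dependent carrier, overlapped between the groups in all 6 comparisons. In the ileum it had 4.32, 3.02 and 4.69 FPKM in treated libraries, against 3.30, 2.45, 1.78 and 4.92 FPKM in KO libraries (log2 difference 0.37, SE 0.339, limma adjusted p = 0.939). Uninjected ileum, at 2.02, 2.47 and 4.99 FPKM, had a log2 difference of 0.06 to KO ileum at 3.17, 2.36, 1.70 and 4.66 FPKM. The values of the ileum groups interleaved. In the colon, values ran over 3.64, 4.71 and 5.69 FPKM in treated libraries and over 4.02, 5.37, 3.45 and 5.26 FPKM in KO libraries of the same table. Uninjected colon had 4.59, 3.75, 4.31 and 5.16 FPKM, against 3.80, 5.07, 3.21 and 4.95 FPKM in KO colon. The colon log2 differences were 0.04 for treated over KO (95% interval -0.47 to 0.56) and 0.07 for uninjected over KO (95% interval -0.42 to 0.56).

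Treated and uninjected transgenic mice differ by the hormone and, for 2 of 3 uninjected ileum and 3 of 4 uninjected colon samples, by labelled sex, and in the ileum these cannot be told apart. The labelled male uninjected sample of each tissue was 10 weeks old, against 9 weeks for treated mice. Treated and uninjected groups overlapped for each of the 6 genes in either tissue, where 2.7% of genes in the ileum table and 1.37% in the colon table did not overlap. For treated over KO, the count was 1 of 6 in the ileum, Trpm6, and 0 of 6 in the colon, where the background was 8.04%. In the ileum, the treated over uninjected differences were -1.02 for Trpm6, 0.05 for Trpm7, -0.46 for Cnnm4, -0.02 for Cnnm2, 0.31 for Slc41a1 and 0.21 for Magt1 on the log2 scale. The colon values were -0.43 for Trpm6, 0.85 for Trpm7 (-0.52 with labelled sex as a covariate), -0.23 for Cnnm4, -0.26 for Cnnm2, -0.03 for Slc41a1 and 0.32 for Magt1. With that covariate, the uninjected side of the estimate rests on library 4 alone, the only one labelled male. A p that misses the threshold does not show that levels were alike: the 95% intervals of the 6 genes reached folds of 0.141 and 3.60 for treated over uninjected ileum and of 0.382 and 4.68 for treated over uninjected colon. They were narrowest for treated over KO colon, where every interval lay between 0.572-fold and 1.70-fold.

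**Figure D4:**
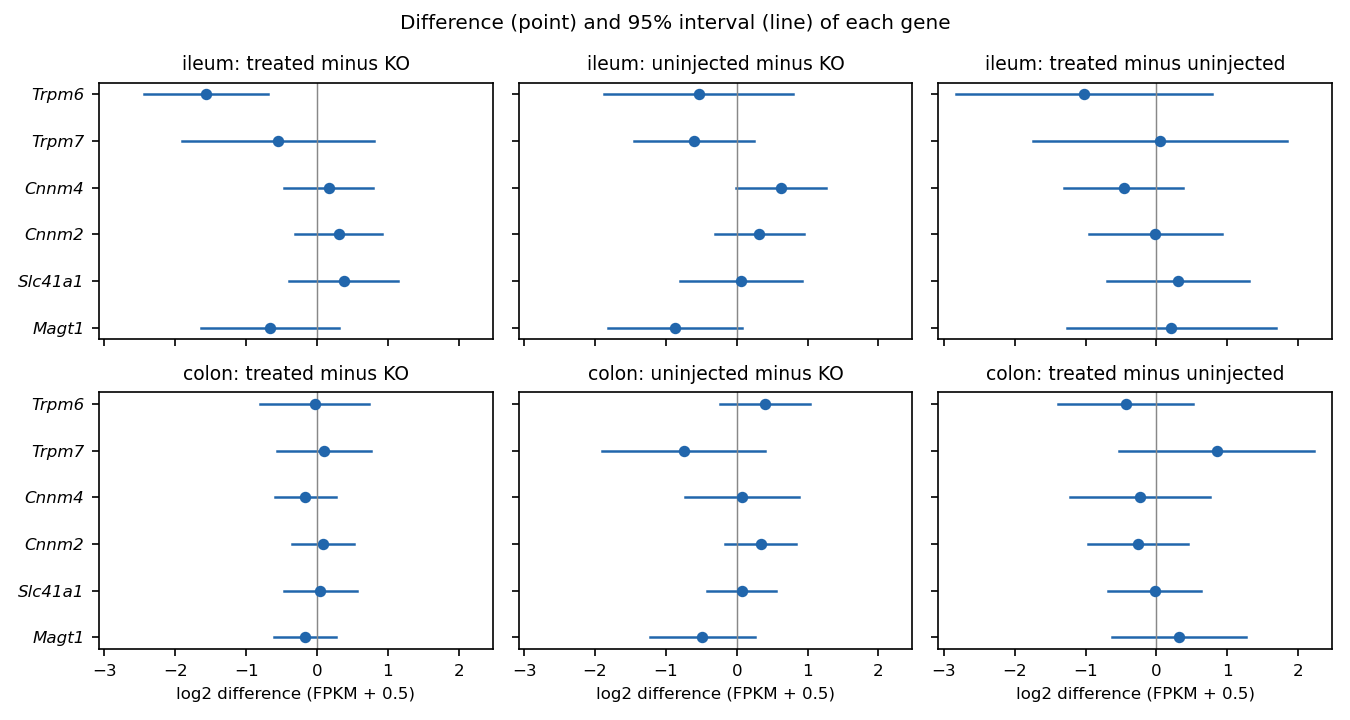
Log2 difference (horizontal axes, on FPKM + 0.5) of each gene in the 6 comparisons, ileum above and colon below, as the limma estimate (point) with its 95% interval (line). Only the interval of Trpm6 in treated over KO ileum (-2.44 to -0.70) lies wholly off 0 among the 36, and none passed after adjustment over all genes.

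Of 32 other genes linked to magnesium transport or its regulation, all were found, and 22 in each ileum comparison and 23 in each colon comparison passed the filter. None passed the test in any comparison, against the background shares given above. The 4 with the smallest unadjusted p were Ptp4a3 and Ptp4a1, phosphatases that bind CNNM proteins, Slc41a3, a carrier of the Slc41a1 family, and Fam111a, a protease mutated in human disorders with low calcium and magnesium. Ptp4a3 averaged 3.54 ± 0.346 FPKM in uninjected ileum (n = 3) and 2.14 ± 0.638 FPKM in KO ileum (SD, n = 4), a log2 difference of 0.64 (limma adjusted p = 0.665), and Slc41a3 averaged 10.7 ± 5.41 and 5.60 ± 1.55 FPKM in the same groups, a difference of 0.81 (limma adjusted p = 0.665). Ptp4a1 averaged 102 ± 16.0 FPKM in treated colon (n = 3) and 74.3 ± 12.5 FPKM in KO colon (SD, n = 4), a difference of 0.45 (limma adjusted p = 0.671), and Fam111a averaged 6.60 ± 2.78 and 3.80 ± 1.09 FPKM, a difference of 0.69 (limma adjusted p = 0.691). By list, 10 of 22 were higher in treated than KO ileum, with a median log2 difference of -0.01 beside 0.00 over all genes, and 10 of 23 in treated than KO colon, with -0.04 beside -0.01.

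Levels of the other genes spanned a wide range. By median, the phosphatase gene Ptp4a2 stood at 98.9 FPKM in the ileum and 163 in the colon, and the mitochondrial magnesium channel gene Mrs2 at 5.84 and 13.7 FPKM in those tissues. Tusc3, the gene most related to Magt1, stood at 7.06 FPKM in the ileum and 13.4 FPKM in the colon. The renal genes Cldn16 and Slc12a3, which serve magnesium and salt handling in the kidney, had medians of 0 and 0.0328 FPKM in the ileum and of 0 and 0.0230 FPKM in the colon.

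The genes whose pattern was most like each member were ranked by Pearson's r of log2(FPKM + 0.5), centred within each tissue, over 21 libraries and among 7535 genes that averaged 5 FPKM or more in both tissues. The r is a description only, since these libraries share tissue, depth and GC slope. Trpm6 was most like Plekha8 (r = 0.915), the brush-border metalloprotease gene Mep1a (0.893) and Ipmk (0.850). Taken by tissue, these r were higher in the ileum (0.982, 0.941 and 0.941) than in the colon (0.707, 0.729 and 0.391). Trpm7 was most like Usp9x (0.992), Epc2 (0.987) and Ireb2 (0.986), whose transcripts have 39.1% to 43.2% GC. Cnnm4 was most like Shroom3 (0.962), Lasp1 (0.959) and Ambra1 (0.931), Cnnm2 most like 1600014C10Rik (0.895), Slc41a1 most like Rasa3 (0.881) and Magt1 most like Dnajc21 (0.979). The 3 genes nearest to Cnnm4 have 54.7% to 60.1% GC. Of the 3 genes nearest to GC-rich Cnnm2, 1600014C10Rik has 49.3%, just below the median of all genes. The next, Vps52 (r = 0.845) and 1500002O20Rik (r = 0.826), have 55.9% and 60.3%.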

How the data were processed

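Per the labels' protocols, poly(A) RNA was sequenced and reads were mapped in CLC Genomics Workbench. Per the submitters' processing notes, the build mm9 and the tools DESeq2, DESeq 1.14.0 and kallisto 0.45.0 are named without a stated use. The authors deposited gene FPKM in 6 tables and scaled each table separately: a library differed between tables by 1 constant factor, from 0.933 to 1.01 in the colon and from 0.915 to 0.980 in the ileum. Groups were therefore tested against each other only within a table. Where levels, Vdr or markers of all groups of a tissue stand side by side, the values come from both tables with KO and cross that scaling. The design text counts 3 uninjected and 4 treated colon samples, but the sample labels and the columns hold 4 and 3, and these were used. Library numbers of treated mice and of uninjected ileum are those of the columns, which were tied to a group and not to a sample.

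From the FPKM, limma 3.58.1 (R 4.3.3) was fitted per table on log2(FPKM + 0.5) for genes that averaged 1 FPKM or more in the table, with an intensity trend and Benjamini-Hochberg adjustment over all genes. A joint fit gave the ileum minus colon differences, and exact two-sided permutation tests compared means of each magnesium gene. Fold changes on this scale understate the change of low genes. Whole reads were recovered from the FPKM steps of 79.8% of 18779 colon genes and 79.5% of 18255 ileum genes (tolerance 0.01 read), and those of other genes were estimated from transcript lengths. Transcript GC came from GENCODE M1 for 91.9% of genes. The procedure was checked on simulated counts with the same dispersion for every gene and no differences in GC slope or acinar content between libraries. That check does not show which changes could be detected in the real libraries.

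The 6 genes, the gene lists and the tests were chosen with earlier results of these data known. The text names the 6 genes, 4 vitamin D targets, the 4 other magnesium genes with the smallest unadjusted p, and the genes most like each member, ranked on values centred within tissue. A few levels of other listed genes were added after their values were seen.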

Additional observations from a re-analysis of the deposited data

How the results depend on the processing

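Across 624 alternative values of 39 log2 differences of the magnesium genes, none passed the adjusted threshold (smallest limma adjusted p 0.111, Trpm7 in uninjected over KO colon without uninjected library 4), 568 kept their direction and 56 took the opposite sign, in 19 differences, none of which had passed the test. Some alternatives could not turn a sign: dropping the filter or the intensity trend, or adding the replicate block, left each estimate as it was. Others repeat each other, since leaving out the steep-slope or the acinar-rich libraries equals leaving out 1 replicate in some comparisons. The count of kept directions therefore does not measure stability. Trpm6 in treated over KO ileum kept its sign throughout. Setting aside 1 library at a time, the reversing log2 differences ran from lowest to highest as follows. For treated over KO ileum they ran over -1.19 to 0.30 for Trpm7 and -0.041 to 0.31 for Cnnm4, and for uninjected over KO ileum over -1.26 to 0.26 for Trpm6 and -0.27 to 0.29 for Slc41a1. For treated over uninjected ileum they ran over -0.59 to 0.90 for Trpm7, -0.14 to 0.22 for Cnnm2 and -0.33 to 0.79 for Magt1. For treated over KO colon they ran over -0.43 to 0.29 for Trpm6, -0.22 to 0.28 for Trpm7, -0.094 to 0.20 for Slc41a1 and -0.33 to 0.026 for Magt1. For uninjected over KO colon they ran over -0.20 to 0.43 for Cnnm4 and -0.041 to 0.15 for Slc41a1, and for treated over uninjected colon over -0.60 to 0.039 for Cnnm4 and -0.17 to 0.13 for Slc41a1. Leaving out a replicate moved the number of genes called to 3 to 14 for treated over KO ileum (10 with all libraries), 0 to 5 for uninjected over KO ileum (1), 17 to 49 for treated over KO colon (37), 2 to 68 for uninjected over KO colon (10) and 0 to 4 for treated over uninjected colon (0).

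Without the 4 libraries of steep GC slope, an alternative added after seeing the data, signs turned in the colon for Trpm7 (0.22), Cnnm4 (-0.39) and Magt1 (0.048) in uninjected over KO, and for Trpm7 (-0.12), Cnnm4 (0.23) and Magt1 (-0.21) in treated over uninjected. In the ileum they turned for Trpm7 (0.30) and Cnnm4 (-0.041) in treated over KO, Trpm6 (0.26) in uninjected over KO and Cnnm2 (0.10) in treated over uninjected. Genes called were then 0 for uninjected over KO ileum, 3 for uninjected over KO colon, and 2 and 3 (1 each with all libraries) for the ileum minus colon differences of treated over KO and uninjected over KO. With GC and length trends removed, also added later, signs turned for Trpm6 in treated over KO colon (0.052), Slc41a1 (0.072) and Magt1 (-0.072) in treated over uninjected colon, Slc41a1 in uninjected over KO ileum (-0.14), and Trpm7 (-0.18) and Cnnm2 (0.079) in treated over uninjected ileum. Genes called were then 63 for treated over KO colon, 0 for uninjected over KO ileum, and 3 and 2 for those tissue differences. With voom on recovered reads, signs turned for Trpm6 in treated over KO colon (0.0089), Cnnm4 (-0.10) and Slc41a1 (-0.058) in uninjected over KO colon, Slc41a1 in treated over uninjected colon (0.12) and in uninjected over KO ileum (-0.13), and Cnnm2 in treated over uninjected ileum (0.18), with 4 and 0 genes called for treated and uninjected over KO ileum. Another alternative left out the acinar-rich libraries KO colon 2 and uninjected colon 3, but kept treated colon 4, which was also acinar-rich. It called 17, 3 and 4 genes for treated over KO, uninjected over KO and treated over uninjected colon. Trpm6 in treated over KO colon was then 0.037. With labelled sex as a covariate, Trpm7 became 0.62 in uninjected over KO colon and -0.52 in treated over uninjected colon. Both estimates rest on uninjected colon 4 alone, the only uninjected library labelled male, and uninjected colon 3 entered as female despite its Ddx3y. Quantile normalization turned Cnnm4 in uninjected over KO colon (-0.11), and median-ratio scaling turned Cnnm2 in treated over uninjected ileum (0.010). With no filter, 1 gene was called for treated over uninjected colon and 7 for the tissue difference of treated over KO. A pseudocount of 0.1 gave 2 genes for uninjected over KO ileum and 0 for its tissue difference, which had 2 with a pseudocount of 1 and 2 with median-ratio scaling. The cause of these changes was not tested.

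Whether the numbers shared by uninjected and KO colon pair the samples could not be decided. The deviations of replicates 1 to 4 correlated at 0.0037, -0.0027, -0.0064 and 0.67. A replicate block there called 3 genes, none of them a magnesium gene. No paired analysis was possible in the other comparisons because the columns carry no replicate numbers of the labels for treated mice and uninjected ileum. With labelled sex as a covariate, where the uninjected colon side rests on library 4, the spread was that of the other libraries in the fit. Counting error is small at these read numbers except for Trpm6 in treated ileum 1 and uninjected ileum 3 (68 and 57 reads) and for Cnnm2, and intervals cover only the spread between libraries.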
